A study of Mus musculus with 33 samples.

Results

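Sertoli cells are the nurse cells of the testis, which line the seminiferous tubules and support the germ cells. Blastocysts made from their nuclei by somatic cell nuclear transfer were set against male blastocysts made by in vitro fertilisation (IVF), gene by gene. The comparison used 11 of the 33 arrays of the series, 4 of Sertoli clones and 7 of male IVF blastocysts, chosen by the donor cell and the sex in the labels. The donors were neonatal Sertoli cells, and every embryo had the (C57BL/6NxDBA/2)F1 background. The clones had been exposed to trichostatin A (TSA), an inhibitor of histone deacetylases, at 50 nM during 1 h of activation, 5 h with cytochalasin B and 2 h after it, and the protocol gives 96 h of culture to the blastocyst stage. No TSA is given for the IVF embryos, so cloning and TSA cannot be told apart. Blastocysts cloned with the same treatment from adult male CA1 neurons (n = 4), adult male Purkinje neurons (n = 4) and adult cumulus cells (n = 3), and 3 female IVF blastocysts, were used where named. Each array carried amplified RNA of a single blastocyst. Nothing in the labels gives the number of donors or of transfer days per group, and p-values therefore cover the spread among these embryos alone, part of which may be technical.

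In nuclear transfer the oocyte has to turn a differentiated nucleus back into an embryonic one within the cleavage divisions. Genes that are known to resist this include the long noncoding RNA Xist, which coats and silences the X chromosome it is made from and which a male embryo normally leaves unused, and X-linked families of the testis and placenta such as Magea, Xlr and Rhox. Imprinted genes, which are read from the maternal or the paternal copy only, are another known class, and some of them rely in the early embryo on trimethylation of lysine on histone H3 (H3K27me3) in place of DNA methylation. By the blastocyst stage the embryo has sorted its cells into trophectoderm, which builds the placenta, primitive endoderm, which builds the yolk sac, and the pluripotent epiblast.

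The start regions of 5 X-linked genes, Rhox5, Xist and members of the Magea and Xlr families, are shown first, because their values are described in full below. Each runs 5′ to 3′ on the strand of its gene, covering 300 bases around the RefSeq start on GRCm38.p6, most of them upstream of it, with CG dinucleotides, the sites of DNA methylation, in capitals. Rhox5 lies at chrX:37754358-37754657 on the plus strand. Xist lies at chrX:103483184-103483483, Magea3 at chrX:154949520-154949819, Magea1 at chrX:155089741-155090040 and Xlr3c at chrX:73265341-73265640, all on the minus strand.
Rhox5: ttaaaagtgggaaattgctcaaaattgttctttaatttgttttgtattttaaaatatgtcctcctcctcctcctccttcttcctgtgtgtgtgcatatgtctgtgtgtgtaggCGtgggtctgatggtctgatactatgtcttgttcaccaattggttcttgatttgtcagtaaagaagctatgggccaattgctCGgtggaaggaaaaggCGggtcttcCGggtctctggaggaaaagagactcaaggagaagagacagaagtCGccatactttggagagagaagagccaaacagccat
Xist: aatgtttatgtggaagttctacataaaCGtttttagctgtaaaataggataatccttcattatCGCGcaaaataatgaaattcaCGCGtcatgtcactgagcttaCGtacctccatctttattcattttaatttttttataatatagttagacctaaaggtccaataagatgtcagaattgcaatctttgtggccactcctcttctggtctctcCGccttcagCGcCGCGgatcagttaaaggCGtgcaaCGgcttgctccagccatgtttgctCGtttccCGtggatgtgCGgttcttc
Magea3: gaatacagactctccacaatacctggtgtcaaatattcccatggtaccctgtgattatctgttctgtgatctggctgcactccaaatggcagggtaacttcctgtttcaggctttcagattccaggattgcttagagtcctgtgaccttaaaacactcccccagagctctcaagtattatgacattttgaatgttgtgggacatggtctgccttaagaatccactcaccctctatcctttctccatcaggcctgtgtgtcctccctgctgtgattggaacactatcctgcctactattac
Magea1: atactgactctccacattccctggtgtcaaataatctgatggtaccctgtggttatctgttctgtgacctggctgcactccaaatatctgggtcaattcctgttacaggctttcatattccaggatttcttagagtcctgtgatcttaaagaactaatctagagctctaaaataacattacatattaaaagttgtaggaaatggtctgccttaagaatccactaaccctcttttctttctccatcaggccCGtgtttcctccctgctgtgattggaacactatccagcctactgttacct
Xlr3c: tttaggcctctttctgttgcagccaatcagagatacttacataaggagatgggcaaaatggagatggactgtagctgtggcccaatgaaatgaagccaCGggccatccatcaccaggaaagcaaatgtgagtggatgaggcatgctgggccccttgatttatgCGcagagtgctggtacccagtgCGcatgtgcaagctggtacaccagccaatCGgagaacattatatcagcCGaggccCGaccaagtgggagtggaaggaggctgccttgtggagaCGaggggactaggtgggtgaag
The Xist window held 15 CG sites, that of Xlr3c 7, that of Rhox5 5, that of Magea1 1 and that of Magea3 0. RefSeq gave 32851 promoter windows of this length, of which 94.6% held at least 1 CG, with a median of 7, and both strands read the same for this motif. Over the 13422 windows of genes tested here 98.8% held at least 1 CG, with a median of 19. The windows of Magea3 and Magea1 were 85.4% identical over 302 aligned columns, against 45.1% to 53% for every other pair among the 9 windows aligned. X-linked genes that were lower in Sertoli clones had a median of 13 CG sites in their windows, as had all X-linked genes tested.

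Values are log2 of the signal over the 75th percentile of the array, with a floor at -3.43 that all arrays share. The 75th percentile was 1019 ± 93.6 in Sertoli clones and 1049 ± 130 in male IVF (SD, n = 4 and 7; two-sided exact permutation p = 0.697). Of all probes 45.4% ± 0.43 were well above background in Sertoli clones and 59.4% ± 1.71 in male IVF (exact permutation p = 0.00303, the smallest that 330 assignments allow), and the part of this difference in the results on dim genes was not tested. The Sertoli arrays were read with 1 scanner and software version on 1 slide and scan day of their own, and all IVF and cumulus arrays with an earlier scanner and software version, so clone and array set cannot be told apart in this comparison. Across 10799 genes well above background on all 11 arrays, r was 0.937 to 0.980 within Sertoli clones, 0.897 to 0.980 within male IVF and 0.864 to 0.938 between the groups. Sertoli clone replicate 4 stood apart: 42 genes lay over 2 log2 units above and 106 over 2 below the other 3 clones, against 1 to 7 and 2 to 11 for each of the others. Where a named call against male IVF was lost without it, or a list's count there moved by over 1.5 times, the value without it is given. Eif2s3y, a Y-linked translation factor gene, gave signal in all clones, as the male label requires. It stood at 4.36, 3.44, 3.89 and 1.89 in Sertoli clones, against 2.49 to 4.12 (median 3.32) in male IVF, so replicate 4 lay below the IVF range. Over the 4 Y-linked genes well above background on all 11 arrays, the median distance from the IVF mean was 1.45, 1.14, 0.61 and -1.21 in clones 1 to 4.

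Of 15793 genes tested, 2372 were higher (15.0%) and 1703 lower (10.8%) in Sertoli clones than in male IVF at an adjusted p under 0.05 (limma, Benjamini-Hochberg over all genes). The median size of a called difference was 1.03 log2 units among the higher and 1.15 among the lower genes. Differences over 2 log2 units numbered 205 higher and 287 lower, and those over 3 numbered 29 and 69. In 1392 genes (8.81%) all 4 clones lay above all 7 IVF arrays, and in 804 (5.09%) all 4 lay below. The split into higher and lower depended on the scaling: with each array's median in place of its 75th percentile there were 1355 higher and 1866 lower, and after quantile normalization 1765 and 2048. Without Sertoli clone replicate 4 there were 2033 higher and 1468 lower.

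The gene with the largest measured rise was Rhox5, an X-linked homeobox gene known from the testis, where Sertoli cells use it, and from the placenta. It stood at 7.39, 6.63, 6.82 and 7.24 in Sertoli clones, against 0.92, 1.36, 0.91, 3.15, -1.23, 1.30 and 0.58 in male IVF. No IVF embryo came within 3 log2 units of a clone, and the difference was 6.02 ± 0.57 (SE; adjusted p = 2.4e-08). Neuronal clones had it at the same height, with 7.64, 6.18, 7.34 and 7.24 in male CA1 clones and 6.63, 5.86, 8.15 and 8.06 in male Purkinje clones, and Sertoli clones differed from them by -0.08 ± 0.65 and -0.15 ± 0.65. In cumulus clones against female IVF, which share 1 array set but neither slide nor scan day, Rhox5 differed by 1.72 and did not pass (adjusted p = 0.18). The 4 other Rhox genes tested differed by -0.38 to 0.46 between Sertoli clones and male IVF.

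The other large rises were spread over the autosomes. Fam89a, a gene of little known function, stood at 2.02, 2.24, 1.81 and 2.27 in Sertoli clones, against -3.43 to -0.41 (median -1.54) in male IVF, a rise of 4.0 ± 0.47 (adjusted p = 7.9e-07). Cidea, which helps lipid droplets to fuse, stood at 1.55, 2.95, 2.72 and 4.77 in Sertoli clones, against -2.90 to -0.80 (median -1.64) in male IVF, a rise of 4.64 ± 0.62. Nbl1, a secreted antagonist of bone morphogenetic proteins, stood at 0.88, 2.02, 2.24 and 3.1 in Sertoli clones, against -1.93 to -0.94 (median -1.57) in male IVF, a rise of 3.64 ± 0.46. In none of these genes did the groups overlap. Among the 12 largest rises were further Itga11, a collagen-binding integrin (3.73), Hic1, a transcriptional repressor (3.71), Rnf225, a RING finger gene (3.90), Mlxipl, a sugar-responsive transcription factor (3.31), Rnd1, an atypical small GTPase (3.30), and Arhgef26, an exchange factor for small GTPases (3.29). The male IVF arrays lay on or next to the floor for Rnf225 other than replicate 3 (-3.09) and for Hic1 other than replicate 4 (-3.19). The rises of both are therefore lower bounds. For Mlxipl the highest male IVF value was -2.48 (replicate 5), also near the floor, and its rise ran from 2.49 to 3.97 over the alternatives. Dnajb4, a co-chaperone, rose by 3.49, and its other probe gave 1.01. The comparison of cumulus clones with female IVF shares no array with this one and lies within the earlier array set. Its clones and IVF embryos lie on different slides and scan days, so clone and slide cannot be told apart there. It called 839 genes (5.31%), of which 308 were higher (1.95%) and 531 lower (3.36%). In it Snhg11, a noncoding host of small nucleolar RNAs, rose by 2.96 (Sertoli clones 3.32), Rnf225 by 2.72, Dnajb4 by 2.66 and Mlxipl by 2.32 (adjusted p of 0.00056 to 0.038), while Cidea differed by -0.42 and Fam89a by 1.64 without passing (adjusted p = 0.87 and 0.11).

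**Figure D1:**
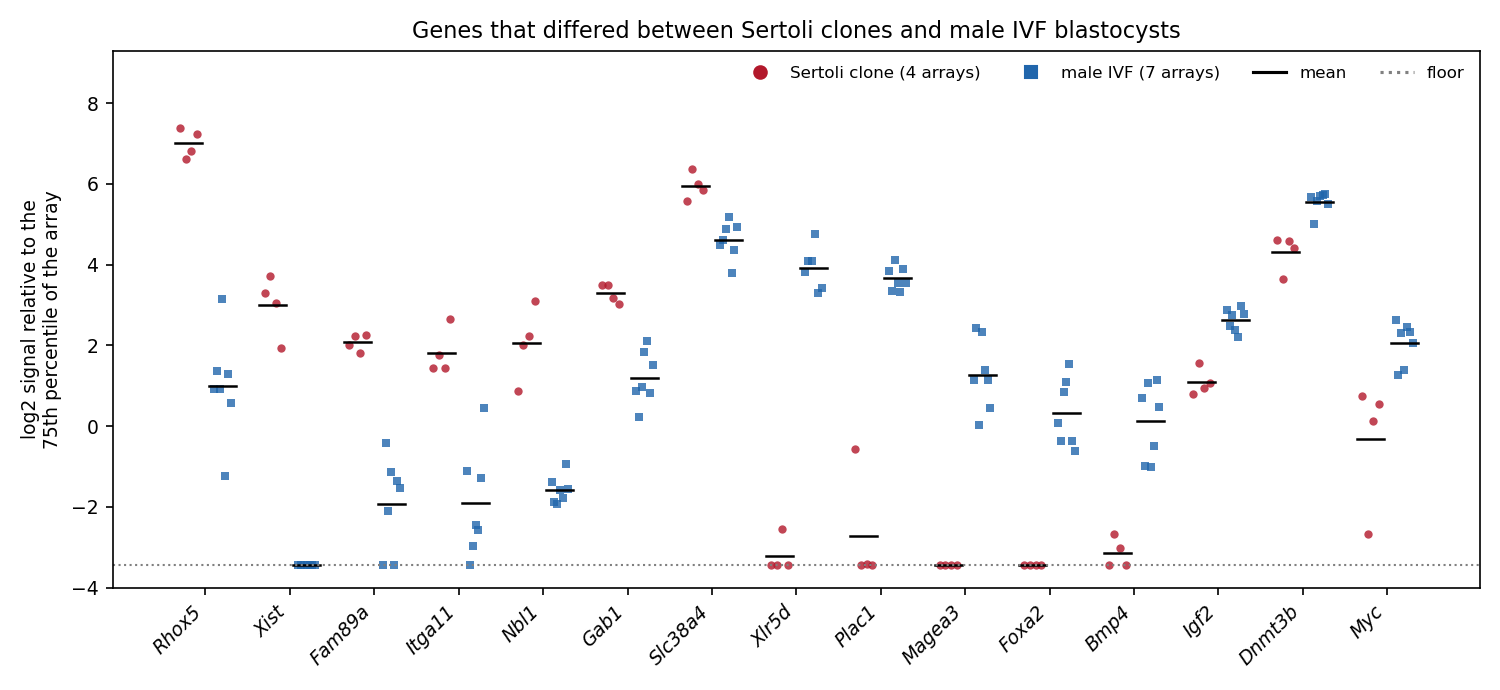
Log2 signal of 15 genes on each array, relative to the 75th percentile of the array; red circles are the 4 Sertoli clones, blue squares the male IVF arrays (Xlr5d has a value on 6 of 7), black bars group means and the dotted line the floor at -3.43. Sertoli clones lie above all IVF arrays from Rhox5 to Slc38a4 and below all of them from Xlr5d to Myc.

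Some genes were seen in 1 group only, so that their difference is a lower bound against the floor or the dimmest measurable signal, and the lack of spread on the floor can make the adjusted p too low. Xist was the highest of them, at 3.30, 3.72, 3.06 and 1.93 in Sertoli clones, with all 7 male IVF arrays on the floor, at least 86.2-fold higher (adjusted p = 6.3e-11). Its 4 probes gave differences of 0.07 to 6.43, and the gene is represented by the brightest. Hand1, a transcription factor of trophoblast giant cells, was at least 8.52-fold higher, at -1.48, 0.22, 0.12 and -0.21 in Sertoli clones against the floor. Lrrc66 (at least 5.59-fold), the Y-linked transcript AK029558 (at least 5.19-fold), the fatty acid binding protein gene Fabp4 (at least 3.77-fold) and Ank2, an ankyrin (at least 3.46-fold), completed the 6 highest bounds. The last of these is lost without Sertoli clone replicate 2 (adjusted p = 0.078) or 4 (0.078), and Fabp4 without replicate 1 (0.1), 2 (0.077) or 3 (0.053).

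The largest falls lay on the X chromosome, which held 8 of the 12 largest measured ones. Xlr5d stood at -3.43, -3.43, -2.54 and -3.43 in Sertoli clones, against 3.83, 4.10, 4.09, 4.75, 3.30 and 3.42 in the 6 male IVF embryos with a value, a difference of -7.12 ± 0.65 on the log2 scale (adjusted p = 1.9e-08). Plac1, an X-linked trophoblast gene needed for a normal placenta, stood at -0.57, -3.43, -3.41 and -3.43 in Sertoli clones, against 3.32 to 4.12 (median 3.55) in male IVF, a difference of -6.37 ± 0.97. Clone replicate 1 kept some Plac1 signal while the other 3 clones were at or next to the floor, and no clone came near an IVF embryo. Dock11, an exchange factor for small GTPases, fell by 4.45 (other probe -2.0), and Maoa, monoamine oxidase A, by 4.07. Of the autosomal genes, Ckap4, a protein of the endoplasmic reticulum, fell by 4.17, Pth1r, the receptor of parathyroid hormone and of its related peptide, by 4.0, and Nefl, a neurofilament subunit, by 3.98. The clones lay on or next to the floor for Xlr5d other than replicate 3 and for Plac1 and Ckap4 other than replicate 1 (-1.53 for Ckap4). The falls of these genes are therefore lower bounds, and the lack of spread on the floor can make their SE too small. Actb, the gene of cytoplasmic beta-actin, fell by 3.94 ± 0.70 with the probe used, which stood at -1.78 to -0.48 in Sertoli clones and 0.80 to 3.88 in male IVF, and by 0.66 with its other probe. Of 1603 called genes with more than 1 probe, 576 had a probe of the opposite sign, so differences of such genes are those of the probe used.

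Across the X chromosome the shift was broad. Of 549 X-linked genes tested other than Xist and Tsix, 163 were lower (29.7%) and 22 higher (4.01%) in Sertoli clones, against 9.98% lower and 15.5% higher among autosomal genes. The median X-linked difference was -0.42 and the median autosomal one 0.02, a gap of -0.44. The gap was -0.25 with a floor 2 times as high and -0.71 in the authors' deposited log2 values, the ends of its range over the alternatives. Taken array by array from the IVF mean, the X-linked minus the autosomal median was -0.66, -0.53, -0.48 and -0.57 in Sertoli clones 1 to 4, against -0.06 to 0.11 in male IVF. The groups did not overlap, and clone 4 was not apart from the others here. X-linked genes made up 3.48% of the genes tested and 9.57% of all lower genes, and 23 of the 69 falls over 3 log2 units. In cumulus clones against female IVF the same gap was -0.32, with 61 X-linked genes lower (11.1%) and 3 higher (0.55%). Among autosomal genes 3.07% were lower and 2.00% higher there.

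The X-linked median was below 0 in each of the 9 windows of 20 Mb that hold X-linked genes with a position. It was lowest between 80 and 100 Mb (-0.83, 25 genes) and between 120 and 140 Mb (-0.78, 42 genes), and nearest to 0 in the window that starts the chromosome (-0.16, 59 genes). Beyond the 12 largest falls, Rnf128, a ubiquitin ligase known from T cell anergy, fell by 3.86, Mbnl3, a splicing regulator, by 3.64, and Msn, the membrane linker moesin, by 3.24, with the smallest fall among its 3 probes at -1.92. Mbnl3 was also lower in cumulus clones (-3.53, adjusted p = 0.0082), whereas Rnf128 was not (-0.20, adjusted p = 0.97). The X-linked housekeeping enzyme gene Pgk1, a step of glycolysis, stood at 4.16, 2.17, 3.24 and 2.25 in Sertoli clones, against 5.06 to 6.07 (median 5.59) in male IVF, a difference of -2.61 ± 0.50. Some X-linked genes went the other way: Fmr1, an RNA-binding protein gene, rose by 1.71 (other probe -0.76), Ebp, an enzyme of cholesterol synthesis, by 1.11 and Nono, a nuclear RNA-binding protein gene, by 1.1 (other probe -0.05). The groups of 12 such genes did not overlap with the probe used. Besides Fmr1 and Nono, another probe was negative for Araf (-1.10), Snx12 (-1.08), Stag2 (-0.80) and Ercc6l (-0.67). Called or not, all 4 clones lay above all 7 IVF arrays in 14 of the 549 X-linked genes and below them in 101. Over all genes these shares were 8.81% and 5.09%. The autosomes had medians between -0.01 (chromosome 5) and 0.15 (chromosome 3). Among genes well above background on all 11 arrays, those of chromosome 5 had a median distance from the IVF mean of 0.19, 0.12 and 0.15 in Sertoli clones 1 to 3 and -0.45 in clone 4, and those of chromosome 12 of 0.37, 0.34 and 0.23 and 0.02.

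**Figure D2:**
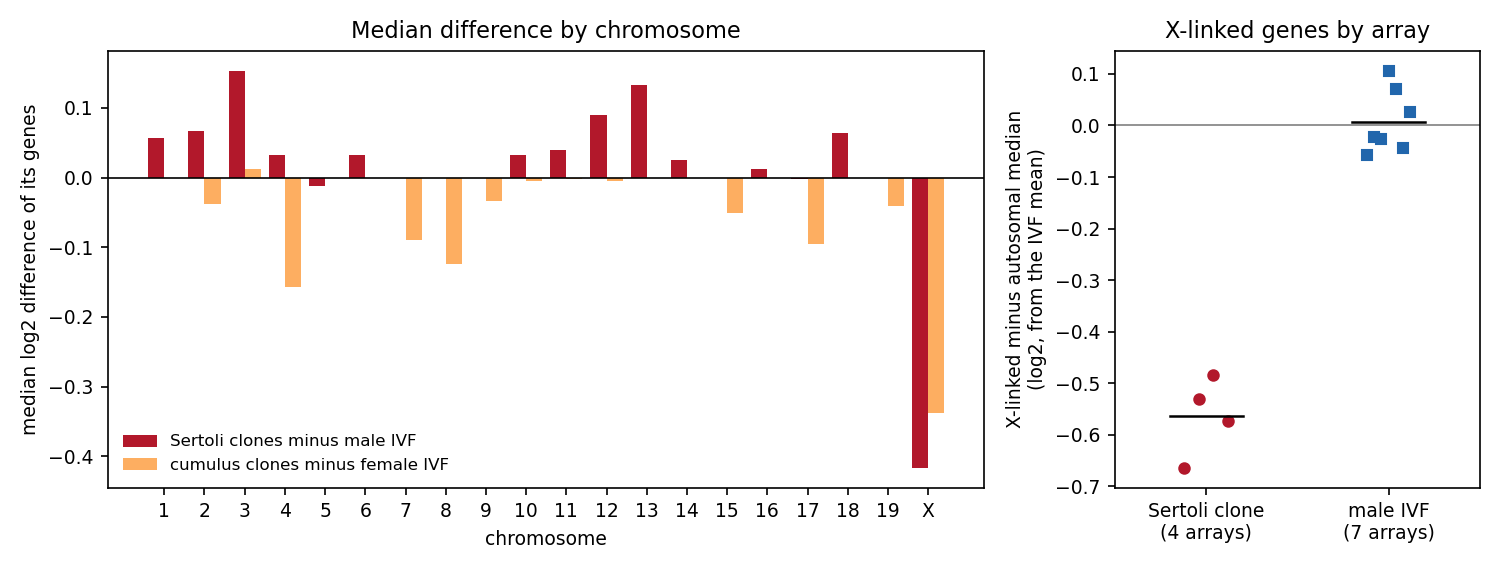
Left, median log2 difference of the genes on each chromosome for Sertoli clones minus male IVF (red) and cumulus clones minus female IVF (orange); the X chromosome is lowest in both (-0.42 and -0.34). Right, X-linked minus autosomal median on each array, in log2 units from the male IVF mean, with group means as black bars; the 4 Sertoli clones lie between -0.66 and -0.48 and male IVF between -0.06 and 0.11.

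Within the locus that controls X inactivation only Xist passed the test among 7 genes (2 genes passed without clone replicate 4). Tsix, the antisense transcript that opposes Xist, was on the floor in all 4 Sertoli clones and at -3.43 to -0.55 in male IVF (difference -0.98 ± 0.44, adjusted p = 0.1). Rlim, the X-linked activator of Xist, differed by -0.01 ± 0.21, and Ftx, a noncoding neighbour of Xist, by 0.77 ± 0.33 (adjusted p = 0.089). Xist was also higher in Sertoli clones than in male CA1 clones, at 1.99, 2.17, 0.71 and 0.75 there, a difference of 1.60 ± 0.50 (adjusted p = 0.037), and did not pass against male Purkinje clones (0.86 ± 0.50, adjusted p = 0.38). The gap between X-linked and autosomal medians was 0 between Sertoli and CA1 clones and -0.20 between Sertoli and Purkinje clones, or -0.07 for the X-linked median without the 5 Purkinje arrays of low signal. Those 5 are male Purkinje replicates 3 and 4 and female Purkinje replicates 2, 3 and 4. Male replicates 1 and 2 then remain in the contrast.

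The Magea genes, which belong to the melanoma antigen family, and the Xlr genes, expressed in lymphoid and germ cells, fell together. All 10 members tested were lower in Sertoli clones (share of all genes lower 10.8%), with a median of -4.63, and in all 10 every clone lay below every IVF embryo. Without clone replicate 4, 9 of the 10 passed. Magea3 was on the floor in all 4 Sertoli clones and stood at 1.14, 2.43, 0.03, 2.34, 1.39, 1.14 and 0.45 in male IVF, at least 26-fold lower (adjusted p = 2.5e-09). Magea8, Magea1 and Magea6 were likewise on the floor in every clone, at least 25.1-fold, 23.9-fold and 18.4-fold lower, and Xlr5c at least 24.4-fold. All 4 of these Magea genes were highest on male IVF replicates 2 and 4. The start regions of Magea3 and Magea1 printed above are 85.4% identical, but those of Magea8 are 52.6% and 50.6% identical to these. Most of a start region lies outside the transcript that a probe binds, and probe sequences were not compared. Whether signal of similar copies is shared between their probes was not tested, and single members are uncertain. Xlr3c stood at -3.43, -2.77, -0.45 and -3.43 in Sertoli clones, against 1.75 to 3.87 (median 3.11) in male IVF, a difference of -5.40 ± 0.79. Xlr4b kept some signal, at -0.27, 1.49, 2.95 and -1.99 in Sertoli clones against 4.59 to 6.40 (median 5.29) in male IVF, a difference of -4.79 ± 0.92. DXBay18, an X-linked transcript outside the list, fell by 4.65 ± 0.31. It lay on or next to the floor in the clones other than replicate 1 (-2.83), so this is a lower bound and its SE can be too small. In cumulus clones 9 of the 10 members were lower than in female IVF, where 3.36% of all genes were lower, with a median of -4.92. The median was -0.19 against CA1 clones and -0.56 against Purkinje clones.

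Of 20 paternally expressed imprinted genes 2 were higher and 1 lower, and of 20 maternally expressed ones 3 were higher and 2 lower, where 25.8% of all genes were called. Without clone replicate 4 only 1 of the maternally expressed genes passed, and it was higher. Igf2, the paternally expressed growth factor of the fetus, stood at 0.79, 1.57, 0.94 and 1.08 in Sertoli clones, against 2.21 to 2.97 (median 2.75) in male IVF, a difference of -1.54 ± 0.35 (adjusted p = 0.0021). Its other probe gave -2.24, the groups did not overlap, and in cumulus clones it differed by 0.00. Mcts2, a paternally expressed retrogene, rose by 1.2 ± 0.27 and Nap1l4, a histone chaperone gene, by 0.69 ± 0.13 (other probe -0.22). Nnat, a paternally expressed membrane protein gene, was at least 3.06-fold higher, at -3.04, -1.67, -2.30 and -0.25 in Sertoli clones against the floor. Grb10, a maternally expressed growth inhibitor, fell by 1.83 (without replicate 1, 2 or 4 its adjusted p was 0.081, 0.083 and 0.077), and the rises of Cd81 (1.87) and Slc22a18 (1.80) did not pass without replicate 4 (adjusted p = 0.058 and 0.13).

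Genes whose imprint in the early embryo is known to rest on H3K27me3 formed a list of their own. Of 15 tested 8 were higher, against 15.0% of all genes, and 1 lower, with a median of 1.08, and without clone replicate 4 the number higher was again 8. Over the alternatives 4 to 8 were higher, and with the mean of the probes of each gene the median was 0.39. Gab1, an adaptor of growth factor signalling, stood at 3.50, 3.50, 3.17 and 3.03 in Sertoli clones, against 0.22 to 2.10 (median 0.98) in male IVF, a rise of 2.11 ± 0.29 (adjusted p = 9.3e-06). Slc38a4, an amino acid transporter of the placenta, stood at 5.59, 6.36, 6.01 and 5.86 in Sertoli clones, against 3.79 to 5.18 (median 4.61) in male IVF, a rise of 1.35 ± 0.25. In both genes every clone lay above every IVF embryo. Mbnl2, a splicing regulator, rose by 1.83 and Bbx, a chromatin protein gene, by 1.42, but their other probes went down to -1.26 and -0.60, and with the mean of the probes neither passed. E2f3, a cell cycle transcription factor, rose by 1.32, Enc1 by 1.18, Slc38a1 by 1.08 and Tle3, a corepressor, by 0.87, while Rbms1, an RNA-binding protein gene, fell by 1.33 with another probe at 2.07. The call of Rbms1 is lost without any 1 of the 4 clones (adjusted p up to 0.15), and that of Tle3 without clone replicate 2, 3 or 4 (up to 0.12), and both without several of the IVF arrays. Sfmbt2, a Polycomb gene of the placenta, differed by 0.78 ± 0.32 (adjusted p = 0.074). The mean level over the 15 genes was 1.91, 1.79, 1.85 and 1.78 in Sertoli clones and 0.99 to 1.34 in male IVF. In cumulus clones Gab1 rose by 2.00 and Slc38a4 by 2.04 against female IVF (adjusted p = 0.0037 and 0.00056), the 2 members that passed there, where 5.31% of all genes were called. Against CA1 clones Gab1 was higher by 1.07 and Mbnl2 by 1.41 in Sertoli clones (adjusted p = 0.034 and 0.030).

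More markers of the extraembryonic lineages were lower than higher in Sertoli clones. In whole blastocysts, fewer cells of a lineage and less RNA per cell cannot be told apart. Of 32 trophectoderm genes 11 were lower and 2 higher, against 10.8% and 15.0% of all genes, with a median of -0.63. Without clone replicate 4 the counts were 8 and 2 and the median -0.42. The mean level of the list was 3.09, 3.11, 3.07 and 2.44 in Sertoli clones, against 3.60 to 3.91 in male IVF, so that all clones lay below all IVF embryos and replicate 4 lay lowest. Besides Plac1, Bmp4, known as a later signal from the extraembryonic ectoderm, stood at -3.43, -2.68, -3.02 and -3.43 in Sertoli clones, against -1.0 to 1.15 (median 0.47) in male IVF, a difference of -3.27 ± 0.49. With clones 1 and 4 on or next to the floor, this fall is a lower bound. Aqp8, a water channel, stood at 2.38, 1.23, 0.79 and -2.84 in Sertoli clones and 2.80 to 4.41 in male IVF, a difference of -3.15 ± 0.77 (-2.08 without replicate 4, adjusted p = 0.036). The keratin Krt7 fell by 2.58, the tight junction gene Cldn4 by 2.06 and the keratin Krt18 by 0.87. The fall of Aqp9, another water channel, by 1.79 did not pass without replicate 4 (-0.94, adjusted p = 0.055). Of the regulators that set up the lineage, Cdx2 differed by -0.69 ± 0.28 (adjusted p = 0.066), Eomes by -0.99 ± 0.41 (0.073), Gata3 by -0.35 ± 0.24 (0.3) and Tead4 by 0.28 ± 0.28 (0.5), and Tfap2c, an AP-2 transcription factor, rose by 1.11. Hand1, described above, was among the 2 higher genes and had the largest rise of the list (3.09, a lower bound). In cumulus clones the median of the list was 0.22, and 1 gene was higher, where 1.95% of all genes were.

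Of 23 primitive endoderm genes 10 were lower and 1 higher, against 10.8% and 15.0% of all genes, with a median of -1.0. Without clone replicate 4 the counts were 9 and 1. Foxa2, a forkhead factor of the endoderm, was on the floor in all 4 Sertoli clones and at -0.62 to 1.54 (median 0.08) in male IVF, at least 13.4-fold lower (adjusted p = 2.4e-05). Cubn, an endocytic receptor of the visceral endoderm, stood at 1.53, -0.95, 0.40 and -1.32 in Sertoli clones, against 1.99 to 4.91 (median 2.86) in male IVF, a difference of -3.34 ± 0.59. Its partner Amn fell by 3.12, although the IVF values ran from -3.43 to 3.42 and overlapped with those of the clones, and it did not pass with the arrays of both groups alone or in the authors' deposited log2 values. The laminin chain gene Lama1 fell by 3.08 (other probe 0.15), Sox7 by 2.45, Cited1 by 1.84 and the endoderm regulator Gata4 by 0.80, while Gata6, which acts first in this lineage, rose by 0.72 (adjusted p = 0.0036). The call of Gata4 is lost without any 1 of the clones (adjusted p up to 0.064) and that of Sox7 without replicate 1, 2 or 3 (up to 0.12), and both without male IVF replicate 3, 4 or 5. Sox17 stood at 3.79, 1.55, 2.91 and -2.45 in Sertoli clones and at 2.95 to 4.4 in male IVF, and did not pass (adjusted p = 0.17). In cumulus clones 6 of the 23 were lower, against 3.36% of all genes, with a median of -1.13, among them Foxa2 (-3.26) and Cubn (-2.80).

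Of 21 pluripotency genes of the epiblast 4 were higher and 2 lower, near the 15.0% and 10.8% of all genes, with a median of -0.13. Without clone replicate 4 the counts were 2 and 2. Zfp42 rose by 0.74 and Nr5a2, which can stand in for Oct4 in reprogramming, by 0.89, whereas Pou5f1, which encodes Oct4, fell by 0.73 ± 0.22 (adjusted p = 0.016, and up to 0.097 without replicate 1 or 2). Nanog differed by 1.14 ± 0.44 (adjusted p = 0.056), Sox2 by 0.56 ± 0.34 (0.23) and Klf4 by -1.25 ± 0.47 (0.051). Dppa2 (0.95) and Tdgf1 (-1.1) did not pass without clone replicate 4 (adjusted p = 0.068 and 0.27), and Esrrb, at an adjusted p of 0.050, was lost without any 1 of the 4 clones.

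**Figure D3:**
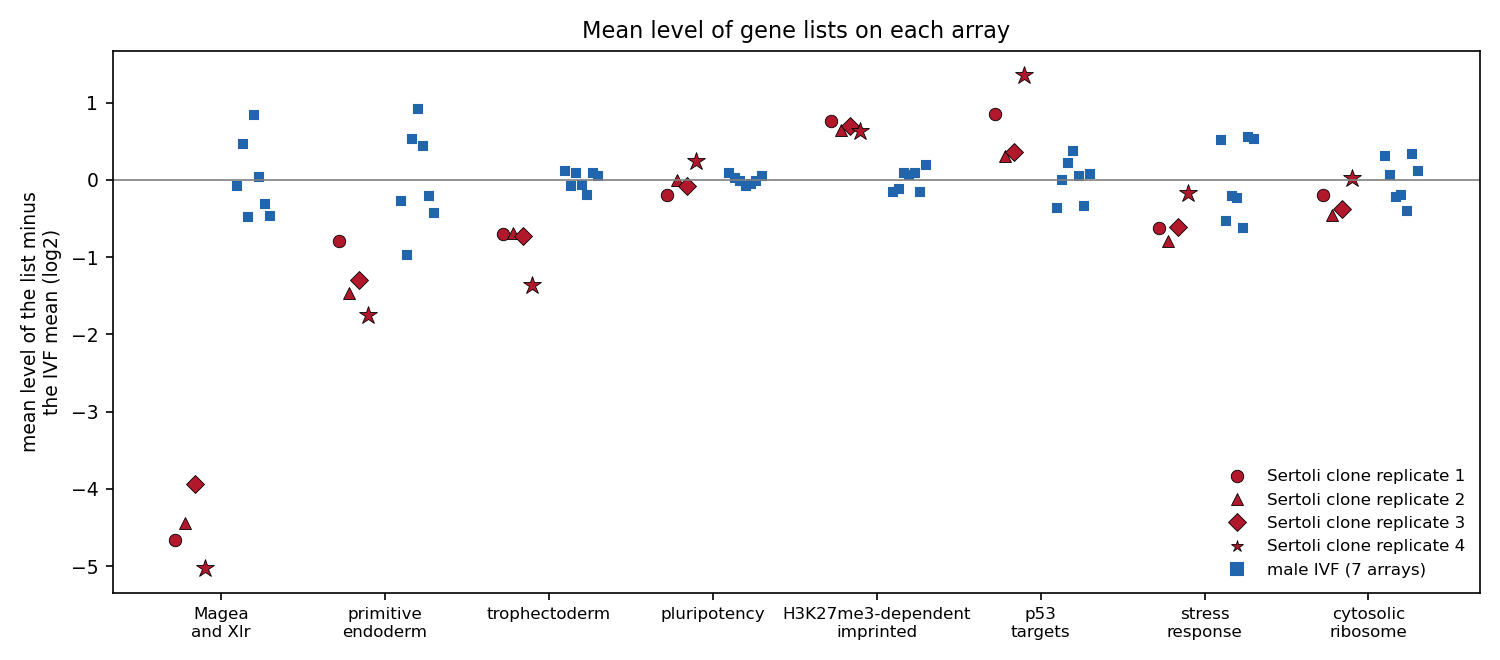
Mean log2 level of 8 gene lists on each array, given as the difference from the male IVF mean; red symbols are Sertoli clones, 1 shape per replicate, and blue squares the 7 male IVF arrays. All clones lie below all IVF arrays for the Magea and Xlr genes and trophectoderm and above them for the H3K27me3-dependent imprinted genes, and replicate 4 (star) is lowest for trophectoderm and primitive endoderm and highest for p53 targets.

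Of all genes 15.0% were higher and 10.8% lower, or 25.8% either way. Among genes of chromatin, the lists of DNA methylation, deacetylases and H3K9 methylation had shares called near the last of these. Those for the setting of DNA methylation had 4 of 18 lower and 1 higher, and without clone replicate 4 only 3 passed, all lower. Dnmt3b, a de novo DNA methyltransferase, stood at 4.6, 3.64, 4.59 and 4.41 in Sertoli clones, against 5.02 to 5.74 (median 5.67) in male IVF, a difference of -1.26 ± 0.20 (adjusted p = 4.6e-05). It fell by 1.09 in cumulus clones (adjusted p = 0.015) and was higher by 0.77 in Sertoli than in CA1 clones (adjusted p = 0.027). Dnmt3l, its cofactor, fell by 1.09 ± 0.24, and Tet1, which oxidises methylcytosine, by 0.78, a call lost without replicate 1, 2 or 4 (adjusted p up to 0.13) or male IVF replicate 2, 6 or 7. Dppa3, which guards the maternal genome against demethylation, rose by 0.82 and is lost without replicate 4 (adjusted p = 0.051). Of the genes of histone deacetylases and their complexes 4 of 20 were lower and 1 higher, and without clone replicate 4 only 2 passed, both lower. Mta1, a subunit of the nucleosome remodelling and deacetylase complex, stood at -2.71, -2.52, -2.44 and -3.33 in Sertoli clones and -0.94 to 0.19 in male IVF, a difference of -2.34 ± 0.27, whereas Hdac1 rose by 0.66 and is lost without replicate 4 (adjusted p = 0.076). Kdm3a, an H3K9 demethylase, rose by 1.34 ± 0.27, and 4 of 17 genes of H3K9 methylation were higher and 1 lower (without clone replicate 4 only 2 passed, both higher). Of 24 Polycomb genes 6 were higher and 2 lower. Rnf2, the main ubiquitin ligase of the complex, rose by 1.72 ± 0.36 and Bmi1 by 1.23, while Ring1, the paralogue of Rnf2, fell by 1.22 (other probe 0.15).

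Targets of p53, which halts or kills cells with damaged DNA, were higher in Sertoli clones in 8 of 24 cases and lower in 1. Of all genes 15.0% were higher and 10.8% lower. The median of the list was 0.61, and without clone replicate 4 the counts were 5 and 2 and the median 0.38. Pmaip1, which encodes the death inducer Noxa, stood at 4.67, 3.01, 3.70 and 4.66 in Sertoli clones, against 0.23 to 3.65 (median 1.05) in male IVF, a rise of 2.59 ± 0.46. Btg2, an antiproliferative gene, stood at 3.77, 3.21, 3.73 and 3.44 in Sertoli clones, against 0.71 to 2.26 (median 1.33) in male IVF, a rise of 2.04 ± 0.25 (adjusted p = 1.5e-06), although another of its 3 probes gave -0.07 and it did not pass with the mean of its probes. Sesn1, a stress sensor, rose by 1.64 ± 0.31, Trp53inp1 by 1.57, Apaf1, the scaffold of the apoptosome, by 1.47, and Ccng1 by 1.31, which is lost without replicate 4 (adjusted p = 0.067). The single lower gene was Trp53 itself (-0.96, adjusted p = 0.0049, other probe 0.06). Cdkn1a, the cell cycle inhibitor p21, stood at -0.59, -0.91, -0.51 and 2.20 in Sertoli clones and -2.67 to -0.51 in male IVF, and its rise of 1.64 did not pass without replicate 4 (adjusted p = 0.24) or without male IVF replicate 1, 6 or 7 (0.067 to 0.073). In cumulus clones the median of the list was 0.13, and against Purkinje clones 3 members were lower in Sertoli clones (6 without Sertoli replicate 4, and 1 without the 5 Purkinje arrays of low signal), where 3.36% of all genes were lower and 4.79% called either way.

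Of 25 genes of the amino acid and unfolded protein stress response 8 were lower and 1 higher, with a median of -0.71. Of all genes 10.8% were lower and 15.0% higher. Xbp1, the transcription factor of the unfolded protein response, stood at -0.64, -0.49, -0.04 and -1.03 in Sertoli clones, against 0.61 to 1.38 (median 1.08) in male IVF, a difference of -1.62 ± 0.22 (adjusted p = 6.8e-06). The folate enzyme genes Mthfd2 and Shmt2 fell by 1.74 and 1.34, Phgdh, which opens serine synthesis, by 1.06, the chaperone Hsp90b1 by 1.13 and Atf4, the regulator of the amino acid response, by 0.82 (adjusted p = 0.12 without replicate 2). Asns, asparagine synthetase, fell by 1.51 and is lost without Sertoli replicate 2, 3 or 4 (adjusted p of 0.077 to 0.12) or male IVF replicate 1, 6 or 7. Xbp1 and Phgdh were lower in cumulus clones as well (-1.11 and -1.25, adjusted p = 0.024 and 0.027). Of 17 heat shock genes 5 were higher and 4 lower. The co-chaperones Bag3 and Dnaja1 rose by 1.00 and 0.99 and the chaperone Hspa2 by 1.58, which did not pass with the mean of its probes, while the constitutive chaperone Hspa8 fell by 0.82 and mitochondrial Hspd1 by 0.46. Of 19 immediate early genes 5 were higher and 1 lower (3 and 2 without clone replicate 4), led by Ccn2, a target of the Hippo pathway, at 4.05, 4.24, 3.99 and 5.70 in Sertoli clones against 1.59 to 3.14 (median 1.88) in male IVF, a rise of 2.44 ± 0.38. Fos rose by 2.00 and is lost without replicate 4 (adjusted p = 0.067). Myc was the exception, at 0.74, -2.68, 0.12 and 0.55 in Sertoli clones and 1.26 to 2.63 (median 2.30) in male IVF, a difference of -2.38 ± 0.52 with no overlap.

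In the Nodal and BMP pathway 7 of 24 genes were higher and 5 lower, against 15.0% and 10.8% of all genes. Without clone replicate 4 the counts were 5 and 2. The receptors Bmpr2, Acvr2a and Acvr1b rose by 1.56, 1.26 and 1.18 and the mediators Smad3 and Smad4 by 1.26 and 0.71, while the ligand Bmp4 fell, as did the target Id3 (-1.38, lost without Sertoli replicate 1 or 2 and without male IVF replicate 1, 2, 3, 6 or 7, with adjusted p of 0.052 to 0.145). Smad3 is lost without Sertoli replicate 1, 3 or 4 (adjusted p up to 0.089) or male IVF replicate 1, 2 or 6. Bmpr2 stood at 4.18, 4.44, 4.21 and 4.38 in Sertoli clones, against 1.69 to 3.41 (median 2.98) in male IVF. In the Hippo pathway 5 of 17 were higher and 1 lower (4 and 2 without clone replicate 4), with Tead1, its DNA-binding partner, up by 1.1 (not past the test with the mean of its probes) and the kinase gene Lats1 up by 1.1 (other probe -0.17), and Amotl2, a scaffold of cell junctions, down by 0.87. Of 19 genes of FGF and MAP kinase signalling 3 were higher and 2 lower (1 lower without clone replicate 4), near the shares of all genes. Sos1, which activates Ras, rose by 2.33 ± 0.36 and Mapk3, which encodes ERK1, fell by 1.2 ± 0.23. Of 35 genes of the cell cycle and replication 10 were higher and 2 lower, among them the cyclins Ccne2 (1.24) and Ccne1 (0.92) and the helicase loader Cdt1 (0.82), with Cdk2 down by 1.21 (other probe 0.20). Without clone replicate 4 these were 8 and 2.

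In cholesterol synthesis 5 of 20 were higher and 1 lower (3 and 1 without replicate 4), with a median of 0.49. Of all genes 15.0% were higher and 10.8% lower. Ebp stood at 6.86, 7.07, 6.82 and 7.63 in Sertoli clones, against 5.36 to 6.33 (median 6.07) in male IVF, a rise of 1.11 ± 0.19, and Hmgcs1, at the entry of the pathway, rose by 0.98 over the 4 IVF arrays that gave it a value. X-linked Nsdhl fell by 1.62 ± 0.31 and its 4 probes gave -2.41 to -0.94. Srebf2, the master regulator of the pathway, rose by 1.15 and the lysosomal sterol exporter Npc1 by 1.02, while Apoe, a lipid carrier, fell by 1.33 and the sterol exporter Abcg1 by 2.49. Me1, which makes NADPH for fatty acid synthesis, stood at 4.44, 4.43, 4.10 and 3.75 in Sertoli clones, against 0.87 to 3.35 (median 1.76) in male IVF, a rise of 2.18 ± 0.38. Of 12 fatty acid synthesis genes 4 were higher and 1 lower (1 and 1 without clone replicate 4). Among 20 lipid droplet genes 5 were higher and 1 lower (4 and 2 without clone replicate 4), with Fabp5 up by 1.77 and Fabp3 down by 0.82 besides Cidea. In glycolysis Hk1, a hexokinase, stood at 3.35, 5.04, 3.98 and 4.90 in Sertoli clones, against 0.65 to 2.37 (median 1.55) in male IVF, a rise of 2.86 ± 0.45, whereas Pgk1 fell, and 2 of 22 genes were higher and 3 lower (2 and 2 without clone replicate 4). Transporters of amino acids included falls of X-linked Slc7a3 (-2.99) and Slc6a14 (-2.33) and of Slc1a3 (-2.38), and a rise of the glutamate transporter Slc1a1 by 1.85.

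Of 79 cytosolic ribosomal protein genes 18 were lower and 1 higher, against 10.8% and 15.0% of all genes, with a median of -0.26. Without clone replicate 4 the 24 that passed were all lower. The falls lay between 0.40 (Rpl9, lost without replicate 2 or 4, adjusted p up to 0.075) and 1.12 (Rpl29) in size, and the mean level of the list was 6.21 to 6.69 in Sertoli clones and 6.26 to 7.0 in male IVF, so the groups overlapped. Of 78 mitochondrial ribosomal protein genes 12 were higher and 8 lower (6 and 8 without clone replicate 4), of 78 respiratory chain genes 6 and 7, and of 38 proteasome genes 3 and 3, shares near or under those of all genes. Ndufa10, a subunit of complex I, fell by 1.71 ± 0.29, and Psmb9, a subunit of the immunoproteasome, rose by 1.86 ± 0.41. Antioxidant genes were higher in 4 of 28 cases and lower in 1, among them Gsr, glutathione reductase, with a rise of 1.09 in Sertoli clones and of 1.47 in cumulus clones.

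**Figure D4:**
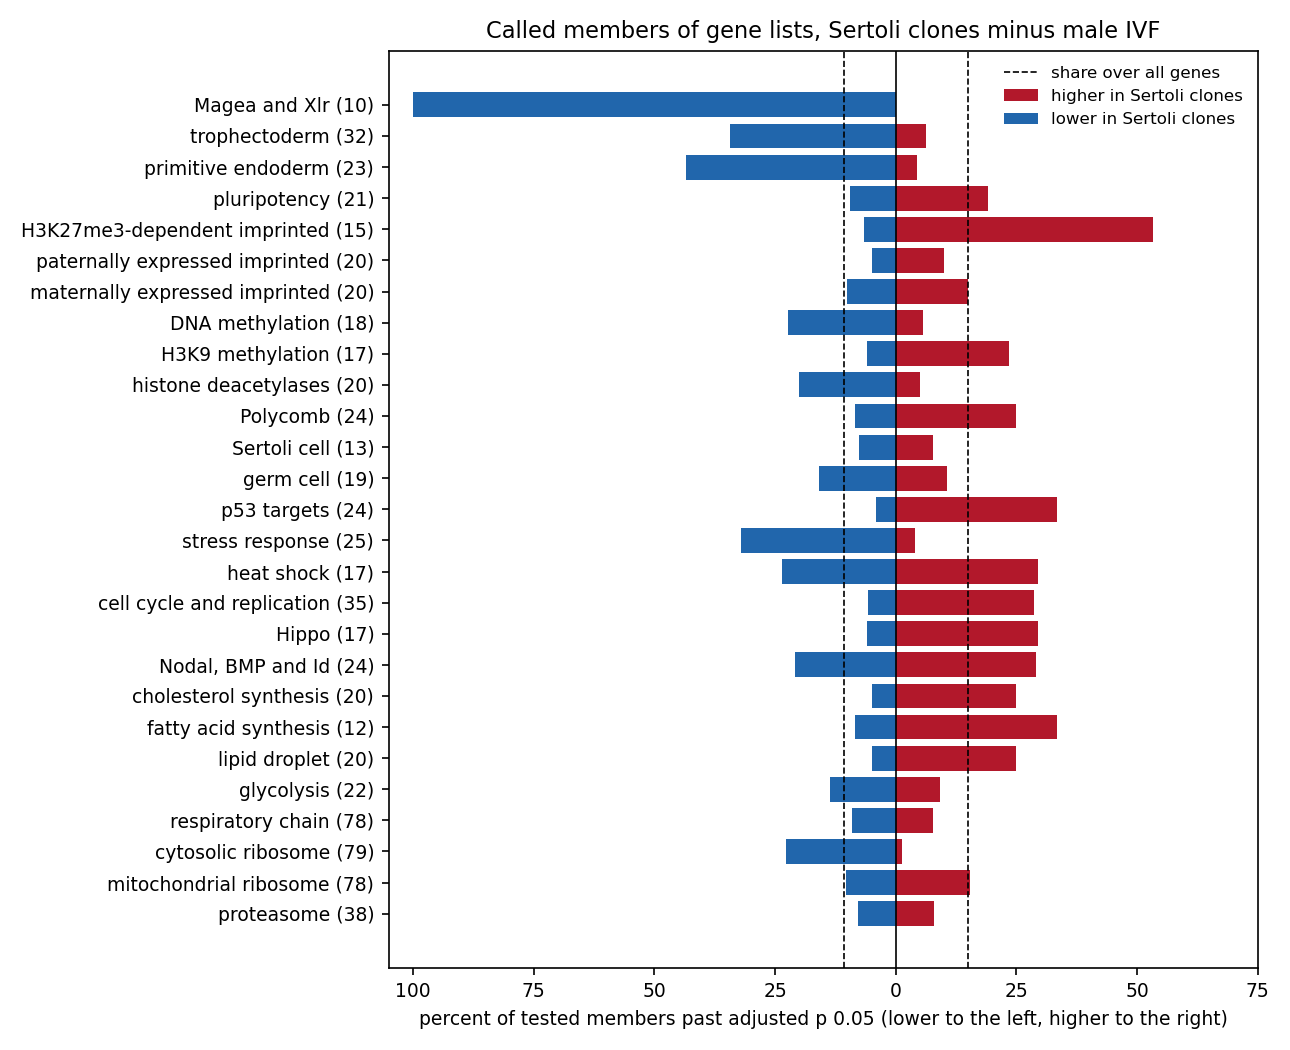
Percent of the tested members of 27 gene lists (number tested in parentheses) that were higher (red, to the right) or lower (blue, to the left) in Sertoli clones than in male IVF at an adjusted p under 0.05; dashed lines mark the shares over all 15793 genes (15.0% higher, 10.8% lower). The Magea and Xlr genes reach 100% lower, and the H3K27me3-dependent imprinted genes have the largest share higher.

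Of 28 Sertoli cell markers 13 passed the filter on dim probes and 5 of these were well above background in all 4 clones. The mean level of the 13 was -2.51 to -2.20 in Sertoli clones and -2.85 to -2.01 in male IVF. Cst9, a cystatin of the fetal testis, stood at -1.21, -0.33, -1.21 and -1.46 in Sertoli clones, against -3.43 to -1.56 (median -3.23) in male IVF, a rise of 1.73 ± 0.57 (adjusted p = 0.026, and 0.097 without replicate 2). Nr0b1, used by Sertoli cells and by pluripotent cells alike, was on the floor in all 4 Sertoli clones and at -3.43 to 0.90 in male IVF, at least 5.88-fold lower (adjusted p = 0.015). Trf and Gdnf were on the floor in every clone, Cldn11 stood at -0.47, -3.43, -3.31 and -2.64 and Clu at -1.45, -1.29, -0.71 and 0.58 in Sertoli clones, and none of these 4 passed. Aard, a testis gene, stood at 0.46, 2.06, 0.80 and -2.47 in Sertoli clones and -1.76 to 0.13 in male IVF (0.92, adjusted p = 0.37), and without replicate 4 it differed by 1.81 (adjusted p = 0.057). Of 6 Leydig and peritubular markers 1 was higher and 1 lower. Cyp11a1, which opens steroid synthesis, was at least 1.71-fold higher, with all IVF arrays on the floor (adjusted p = 0.028), and is lost without Sertoli replicate 1 (0.11) or 3 (0.24). Acta2, smooth muscle actin, stood at -0.19 to 0.36 in Sertoli clones and 1.18 to 3.85 in male IVF, a difference of -2.48 ± 0.47. Of 19 germ cell genes 2 were higher and 3 lower (2 and 1 without clone replicate 4), against 15.0% and 10.8% of all genes. Asz1, which protects germ cells from transposons, was on the floor in all clones and at -0.64 to 1.28 in male IVF, at least 10.51-fold lower, and lower in cumulus clones too (-3.68), whereas Tdrd12 rose by 2.58 (other probe 0.36). Of 10 oocyte genes 2 were higher (1 higher and 1 lower without clone replicate 4), Gdf9 and Oog1, and each is lost without at least 1 clone (adjusted p of 0.055 to 0.09). Of the Y-linked genes Kdm5d, a histone demethylase, rose by 1.5 (not past the test with the arrays of both groups alone) and Ddx3y, an RNA helicase, fell by 1.5 (other probe -0.78), while Eif2s3y differed by 0.08 ± 0.33.

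Sertoli clones were also set against the neuronal clones, which lie in the same array set on slides of their own, so that donor and slide cannot be told apart. Against male CA1 clones 998 genes were higher (6.32%) and 871 lower (5.52%), and without CA1 replicate 4 these were 367 and 395. Against male Purkinje clones 756 genes (4.79%) were called, 225 higher (1.42%) and 531 lower (3.36%). Without the 5 Purkinje arrays of lowest signal (75th percentile of 230 to 470), a choice made after the data were seen, 59 were higher and 126 lower. These 5 were male replicates 3 and 4 and female replicates 2, 3 and 4, so the contrast then rested on male replicates 1 and 2. Low signal and the loss of arrays cannot be told apart in this drop. Both comparisons share the Sertoli arrays with that against male IVF. The largest differences from CA1 clones were of AK040490, at -2.08, -1.78, -2.54 and -2.15 in Sertoli clones against 2.82, 2.96, 2.48 and 2.55 in CA1 clones (-4.84 ± 0.46, adjusted p = 3.2e-08), D830039M14Rik (-4.56), Trim45, a ubiquitin ligase gene (-4.21), Parm1 (-3.93) and the S6 kinase gene Rps6kb2 (-3.71). All 5 were lower than in Purkinje clones too, by 1.23 to 2.89 log2 units in size. Higher than in CA1 clones were Dcaf12l2 (3.44), Fgl1, a liver fibrinogen-like protein gene (3.41), and the immediate early factor Junb, at 0.98, 1.19, 1.38 and 1.68 in Sertoli clones against -1.60, -1.89, -0.93 and -1.17 in CA1 clones (2.70 ± 0.37). Dcaf12l2, Fgl1 and Junb did not pass against male IVF (-0.37, -0.26 and -0.52, adjusted p = 0.72, 0.81 and 0.25). Polycomb genes were higher than in CA1 clones in 8 of 24 cases, with Rnf2 higher by 1.60, and the Hippo kinase Lats1 by 1.57.

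Against Purkinje clones sterol and fatty acid genes were among those higher, where 1.42% of all genes were higher and 3.36% lower. Of 20 cholesterol synthesis genes 7 were higher, with a median of 1.26, and of 12 fatty acid synthesis genes 6, with a median of 0.75. Scd2, a fatty acid desaturase, was higher by 1.39 ± 0.31. Without the 5 Purkinje arrays of low signal 2 cholesterol genes and 2 fatty acid genes passed, with medians of 1.11 and 0.82. Of 79 cytosolic ribosomal genes 27 were lower than in Purkinje clones (13 without those arrays), and of 32 trophectoderm genes 8 were lower (1 without those arrays, and 3 without Sertoli replicate 4). Obsl1, a cytoskeletal adaptor (3.27), Fbln5, an elastic fibre protein (3.14), and the kinase Lck (2.90) led the higher genes, and Elk3, an ETS factor (-3.40), and Myt1l, a neuronal transcription factor (-3.36), the lower ones. Myt1l stood at -1.54, -3.43, -3.43 and -3.42 in Sertoli clones, against -0.61, -0.10, 1.51 and 0.81 in Purkinje clones, but it did not pass against male IVF (-1.18, adjusted p = 0.18).

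Over the 10799 genes the median SD was 0.34 among the 4 clones and 0.48 among the 7 IVF arrays, and 31.8% of the genes had the higher SD in clones. The clones lie on 1 slide and scan day and the IVF arrays on 3 of each, and the SD of the clones includes replicate 4. Low in replicate 4 were genes chosen here after their values were seen: Adh1, an alcohol dehydrogenase, stood at 7.73, 8.01, 7.38 and 2.58 in clones 1 to 4 and at 8.24 to 8.81 in male IVF, Unc93a at 2.4, 4.14, 3.64 and -2.12 against 4.03 to 4.84, and Grhl1, an epithelial transcription factor, at 3.45, 3.22, 2.99 and -0.38 against 1.65 to 2.98. The engulfment adaptor Gulp1 stood at 1.55, 3.24, 2.84 and -2.97 in the clones and at 2.19 to 3.93 in male IVF. Myl9, a myosin light chain, was instead high in replicate 4, at 0.67, -0.84, 0.98 and 5.20 in the clones and 0.56 to 3.88 in male IVF. Between the groups Adh1 was called lower (-2.05, adjusted p = 0.011; -0.77 and 0.059 without replicate 4), and so was Unc93a (-2.31, adjusted p = 0.037). The call of Unc93a is lost without Sertoli replicate 4 (adjusted p = 0.33) or 1 (0.059) or male IVF replicate 1 (0.054) or 3 (0.057). Clone replicate 1 kept signal in several of the fallen genes in which the other clones were at or near the floor, among them Plac1 and Ckap4 (-1.53). Deptor, an inhibitor of mTOR signalling, had the widest range, at -3.43, 0.95, 0.45 and 2.95 in Sertoli clones.

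Of the genes called in Sertoli clones, 150 of the 2372 higher (6.32%) were also higher in cumulus clones against female IVF, which is 48.7% of the 308 higher there (1.95% of all genes), and 201 of the 1703 lower (11.8%) were also lower, which is 37.9% of the 531 lower there (3.36%). The opposite call was made in 21 and 6 genes. The cumulus clones differ from Sertoli clones in sex, donor, slide and array set, so these shares compare whole experiments.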

How the data were processed

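Agilent one-colour arrays of single blastocysts were analysed from the deposited scanner files. Their intensity values (gProcessedSignal) had been corrected for background by Feature Extraction, per the file headers, and the submitters' processing notes name Agilent Feature Extraction 10.5.1. After this step 18.9% ± 2.27 (SD, n = 7) of the intensities were at or below 0 in male IVF and 0% in Sertoli clones. The low end of the signal thus differed between the groups compared, and its effect on dim genes was not tested. Each probe's signal was averaged over its spots without outlier flags, divided by the 75th percentile of its array, floored at 0.0929 of it and put on the log2 scale. Probes were kept if more than 50% of some group's arrays flagged them well above background and if 3 arrays or more exceeded the floor, and a gene was represented by its probe of highest mean. Of 41174 probes 22951 were named by accession, 6659 by symbol and 3109 by synonym through the RefSeq table, and 8455 kept the file's name. All 33 arrays in 8 groups were fitted with limma 3.58.1 (lmFit and eBayes, R 4.3.3), and p-values were adjusted by Benjamini-Hochberg over 15793 genes. Scripts were tested on simulated data.

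The members and gene lists were chosen with earlier results of these data known. Genes were named by a rule: the 12 largest rises and falls with groups apart, the 6 highest bounds each way, up to 4 called members of each list, the 5 largest differences each way from the neuronal clones, fixed genes of X and Y, Sertoli markers, and the 5 genes of widest range over clones. Further list members, and genes of clone replicate 4, were named after their values were seen. The authors' deposited value table holds log2 values centred by sex, which differed from the values used here by a median of 0.0123 over 19 male arrays after the same centring, and it served as an alternative. The planned background correction on mean signals was run on median signals, since the files of the later array set hold no mean signal. Array number limits the precision. Same-numbered arrays did not deviate together (correlations of -0.163 to 0.0748 between Sertoli clones and the other male groups), so replicate numbers were not taken as pairs. Some named genes are not reported here.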

Additional observations from a re-analysis of the deposited data

Results flagged for a closer look

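Of 361 groups of array values of named genes, 30 (8.31%) had 1 end array whose gap to its neighbour was large relative to the range of the group. Chance gives about 5% among spread values, which does not hold for 16 of the 30, in which the other arrays lay on or next to the floor and any signal off it is picked out. In Sertoli clones the array was replicate 4 in 8 cases and replicate 1 in 6. On male IVF replicate 3 this held for Rnf225 at -3.09, Clu at 2.52 and Cldn11 at -2.88. On male IVF replicate 4 this held for Hic1 at -3.19 and Oog1 at -2.37. On male IVF replicate 5 this held for Mlxipl at -2.48 and Asz1 at 1.28. On Sertoli clone replicate 3 this held for Xlr5d at -2.54, Grb10 at -1.47 and Eno1 at -3.31. On Sertoli clone replicate 1 this held for Plac1 at -0.57, DXBay18 at -2.83, Ckap4 at -1.53, AK029558 at 0.81, Spry4 at -1.15 and Myt1l at -1.54. On Sertoli clone replicate 4 this held for Nap1l4 at 7.30, Cdkn1a at 2.20, Ccn2 at 5.70, Srebf2 at 5.81, Mrpl22 at 4.05, NAP053178-1 at -3.42, Cst12 at -1.64 and Cyp26b1 at -2.84. On male IVF replicate 2 this held for Dnmt3b at 5.02, Slc1a4 at -0.48 and Fbln5 at -0.84. On male IVF replicate 7 this held for Parm1 at 0.97. On male IVF replicate 1 this held for Tenm3 at -2.77. On Sertoli clone replicate 2 this held for Uty at -2.96.

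Sertoli clones differed from neuronal clones, by the test of that difference, in the named genes that follow, some of which were named for its size. Donor, donor age and slide cannot be told apart here. Sertoli clones were higher than male CA1 clones in Xist (1.60), AK029558 (2.24), Nap1l4 (0.57), Gab1 (1.07), Mbnl2 (1.41), Dnmt3b (0.77), Setdb1 (0.91), Rcor1 (1.24), Rnf2 (1.60), Gja1 (1.31), Bmpr2 (1.05), Lats1 (1.57), Amotl2 (1.24), Scd2 (1.19), Itga6 (0.77), Ccne2 (1.31), Dcaf12l2 (3.44), Fgl1 (3.41), Junb (2.70), NAP046244-1 (2.63), Rab27a (2.61) and Tenm3 (2.50), in log2 units with adjusted p under 0.05. Sertoli clones were lower than male CA1 clones in Slc22a18 (-2.05), Apoe (-1.29), Mrpl22 (-1.09), AK040490 (-4.84), D830039M14Rik (-4.56), Trim45 (-4.21), Parm1 (-3.93), Rps6kb2 (-3.71), Elk3 (-3.34) and NAP053178-1 (-3.14), in log2 units with adjusted p under 0.05. Sertoli clones were higher than male Purkinje clones in Kdm3a (1.02), Hspa2 (1.49), Hmgcs1 (1.13), Scd2 (1.39), Obsl1 (3.27), Fbln5 (3.14), Lck (2.90), Khk (2.68) and Tenm3 (2.55), in log2 units with adjusted p under 0.05. Sertoli clones were lower than male Purkinje clones in Bmp4 (-1.89), AK040490 (-2.89), D830039M14Rik (-2.76), Trim45 (-2.59), Parm1 (-2.88), Rps6kb2 (-1.23), Elk3 (-3.40), Myt1l (-3.36), NAP053178-1 (-3.27), LOC673334 (-3.26), BC071254 (-3.03) and Uty (-1.53), in log2 units with adjusted p under 0.05.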

How the results depend on the processing

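Of the 164 named genes past the threshold, 83 passed in the same direction under all 25 alternatives, 81 lost the call under at least 1, and 0 turned round. Of 31 named genes not past it, 13 passed under at least 1. With normexp on median signals, chosen after the data were seen, 1107 genes were higher and 861 lower in Sertoli clones than in male IVF, 112 and 257 against CA1 clones, 539 and 1323 against Purkinje clones, and 66 and 133 in cumulus clones against female IVF. Scaling to the median gave 1355 higher against male IVF, 456 lower against CA1 clones, 173 lower against Purkinje clones and 266 lower in cumulus clones. Quantile normalization gave 342 lower against Purkinje clones. Without a filter on dim probes 148 were higher against Purkinje clones and 190 in cumulus clones. With only the arrays of the groups compared there were 102 higher and 213 lower against Purkinje clones, and 76 and 153 in cumulus clones. Slide as a random block (correlation 0.0312) gave 145 higher against Purkinje clones and 205 in cumulus clones. Without the 5 Purkinje arrays of low signal, chosen after the data were seen, 59 were higher and 126 lower against Purkinje clones, with male Purkinje replicates 1 and 2 left. Leaving out 1 array gave 1880 (without Sertoli replicate 2) to 2508 higher and 1137 (without Sertoli replicate 2) to 1945 lower against male IVF, 367 to 1022 and 395 to 877 against CA1 clones (lowest without CA1 replicate 4), 103 to 258 and 268 to 693 against Purkinje clones (lowest without Purkinje replicate 4), and 80 to 275 and 144 to 421 in cumulus clones (lowest without cumulus replicate 2). The replicate block gave 1810 higher and 1263 lower against male IVF, 1026 and 895 against CA1 clones, 224 and 522 against Purkinje clones, and 310 and 575 in cumulus clones. Of the called genes 58.2% were higher against male IVF, 42.1% with the median and 46.3% with quantile normalization, against 29.8%, 55.6% and 39.9% in the Purkinje comparison. The list median turned to -0.018 for the cell cycle and -0.013 for H3K9 methylation under quantile normalization, -0.012 for Sertoli cell markers with a floor 2 times as high, -0.27 for germ cell genes among genes well above background on all arrays of both groups, and -0.040 for FGF and MAP kinase genes with the mean of probes. The cause of these shifts was not tested. The correction on mean signals was not run. Genes on the floor have no order below it.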
